A study of Mus musculus with 2 samples.

Results

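The Ink4/Arf locus of mouse chromosome 4 was examined through Cdkn2a and Cdkn2b, the tumour suppressor genes that define it, and through 4 genes on either side of them, Klhl9, Mtap, Tusc1 and Caap1. These 6 of the 22711 listed genes were chosen by symbol and position, with total FPKM and B6 shares of this region in both lines already known from earlier results, so their levels and allelic shares are given as a description with no test. All 6 symbols were present for both lines. Polyadenylated RNA came from 2 immortal lines of mouse embryonic fibroblasts. Both are hybrids of the inbred strains C57BL/6N (B6) and PWK/PhJ (PWK), with 1 Smart-seq2 library each. In the line B6-Xi, of the strain label PWK/PhJ X C57BL/6N, the inactive X chromosome is the B6 copy. In the line PWK-Xi, labelled C57BL/6N X PWK/PhJ, it is the PWK copy. Each line has a single library, so no difference below has a replicate check. How the lines became immortal, and whether either is a single clone, the sources used here do not give.

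Cdkn2a encodes 2 unrelated proteins from separate first exons. One is p16Ink4a, which inhibits the cyclin D-dependent kinases and so keeps the retinoblastoma protein active. The other is p19Arf, which binds Mdm2 and so stabilises p53. Cdkn2b encodes p15Ink4b, a close relative of p16Ink4a. In cultured mouse fibroblasts these genes are known for being induced during serial passage, and loss of the locus or of p53 is a common route to immortal growth. Mtap, beside them, encodes methylthioadenosine phosphorylase, which recycles a by-product of polyamine synthesis to methionine, and in human tumours it is often lost together with the locus.

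The starts of these genes are shown because the data give a single value for Cdkn2a, whichever first exon was used, and because Cdkn2a and Cdkn2b differed from their neighbour Mtap. The windows are RefSeq sequences of build GRCm38.p6, 250 bases before to 50 bases after each start, written along the gene's own strand. Capitals mark GGGCGG or its reverse complement CCGCCC (the GC box bound by Sp1 factors) and TGACGTCA (the cAMP response element, the same on both strands). The first and second Cdkn2a starts, those of the Arf and the Ink4a first exon, lie at chr4:89294570-89294869 and chr4:89282143-89282442 on the minus strand. Cdkn2b lies at chr4:89310983-89311282 on the minus strand, and Mtap at chr4:89137120-89137419 on the plus strand.
Cdkn2a, first start: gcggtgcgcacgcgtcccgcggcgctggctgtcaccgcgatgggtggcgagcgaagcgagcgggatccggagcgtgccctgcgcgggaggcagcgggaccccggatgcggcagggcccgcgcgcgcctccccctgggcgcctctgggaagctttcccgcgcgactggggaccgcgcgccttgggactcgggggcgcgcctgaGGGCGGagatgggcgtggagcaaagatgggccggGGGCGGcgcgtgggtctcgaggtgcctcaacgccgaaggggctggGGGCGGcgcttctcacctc
Cdkn2a, second start: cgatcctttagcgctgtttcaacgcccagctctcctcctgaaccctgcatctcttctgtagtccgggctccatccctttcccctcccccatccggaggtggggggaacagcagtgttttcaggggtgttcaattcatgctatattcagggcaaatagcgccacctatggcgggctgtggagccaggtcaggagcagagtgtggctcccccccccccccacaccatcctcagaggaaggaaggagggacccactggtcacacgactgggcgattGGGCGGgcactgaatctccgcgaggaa
Cdkn2b: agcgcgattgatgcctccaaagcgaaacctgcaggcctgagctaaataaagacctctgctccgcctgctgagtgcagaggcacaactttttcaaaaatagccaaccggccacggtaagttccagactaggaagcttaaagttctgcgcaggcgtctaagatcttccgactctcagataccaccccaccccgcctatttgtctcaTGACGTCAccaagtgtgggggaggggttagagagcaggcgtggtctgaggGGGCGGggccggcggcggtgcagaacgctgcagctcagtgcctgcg
Mtap: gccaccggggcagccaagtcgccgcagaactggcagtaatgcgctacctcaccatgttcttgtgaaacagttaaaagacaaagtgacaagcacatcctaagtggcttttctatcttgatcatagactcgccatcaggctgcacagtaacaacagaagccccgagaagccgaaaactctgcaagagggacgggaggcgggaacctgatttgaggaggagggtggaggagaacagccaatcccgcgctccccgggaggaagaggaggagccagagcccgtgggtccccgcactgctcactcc

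The 2 Cdkn2a starts differed in composition. The first held 45 CG dinucleotides and 77% G and C, more CG than 98.1% of the 32851 promoter windows of the table. The second held 12 CG and 60.3% G and C, and Cdkn2b and Mtap held 18 and 14 CG, against a median of 7 over all windows. GC boxes numbered 3 at the first Cdkn2a start, 1 at the second and 1 at Cdkn2b, with none at Mtap. Klhl9 held 3, Tusc1 held 2 and Caap1 held none, and 35.7% of all windows held at least 1. The cAMP response element stood once at Cdkn2b and at none of the other starts of the 6 genes, against 1.79% of all windows. Neither the AP-1 site TGACTCA (or TGAGTCA) nor the E-box CACGTG, held by 5.20% and 7.15% of windows, was in the window of any of the 6 genes. CCAAT or ATTGG, held by 37.4% of windows, occurred at the second Cdkn2a start, at Mtap and at Caap1. A match describes the letters only. The Cdkn2a starts are 12.4 kb apart and the first lies 16.4 kb from that of Cdkn2b, while Mtap starts 144.8 kb from the second Cdkn2a start. Tusc1 starts 4.02 Mb beyond Cdkn2b, and Caap1 another 1.22 Mb on.

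Expression was measured as FPKM (fragments adjusted for the size of the transcript and of the library), which the authors split into a B6 and a PWK value for each gene. The B6 share is the B6 value as a percentage of both together. Read depth is unknown. There were 10127 genes above 0 in B6-Xi and 12907 in PWK-Xi. A listed 0 is not proof of silence. Vim, B2m and Ppia, used by fibroblasts, were at 0 in both lines. Gapdh was at 0 in B6-Xi and at 48.2 FPKM in PWK-Xi. Fibroblast markers were present. Of 12 fixed markers 11 were above 0 in B6-Xi (Lum was at 0) and 12 in PWK-Xi, with Col1a2 at 134.3 and 69.2 FPKM. Markers of other cells were low. The 5 epithelial, 4 endothelial and 4 immune genes summed to 0, 0 and 1.56 FPKM in B6-Xi and to 1.29, 0.205 and 3.55 FPKM in PWK-Xi. The 4 pluripotency genes summed to 0 and 17.6 FPKM. Most of the latter was Pou5f1 at 15.1 FPKM, with Sox2 at 2.19 FPKM, Nanog at 0.360 FPKM and Zfp42 at 0. By totals the pluripotency genes, like Cdkn2a and Cdkn2b, were at 0 in B6-Xi and in part expressed in PWK-Xi. By allele they differed: Pou5f1, Sox2 and Nanog came from B6 alone in PWK-Xi, while Cdkn2a and Cdkn2b had both alleles there. The part of the pluripotency genes in the results was not tested.

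Cdkn2a and Cdkn2b were listed at 0 in B6-Xi and were expressed from both alleles in PWK-Xi. Cdkn2a had 0 FPKM from either allele in B6-Xi. In PWK-Xi it had 3.71 FPKM from B6 and 3.18 FPKM from PWK, in all 6.88 FPKM with a B6 share of 53.8%. Cdkn2b, also at 0 from both alleles in B6-Xi, had 7.49 FPKM from B6 and 7.25 FPKM from PWK in PWK-Xi, in all 14.7 FPKM with a B6 share of 50.8%. Per length, the Cdkn2b level in PWK-Xi was 2.14-fold that of Cdkn2a. Among genes above 0 in that line, 82.1% lay below Cdkn2b and 67.5% below Cdkn2a. No fold is given against a library at 0. In these bulk libraries, fewer cells with a transcript and less RNA per cell cannot be told apart.

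A 0 in B6-Xi was not rare among genes of this level. Of 5065 genes that reached 5 FPKM in PWK-Xi, 4.76% had a 0 in B6-Xi, as had 2 of the 4 genes of the set that reached this level. Among the 2195 genes within 1.5-fold of Cdkn2a in PWK-Xi the share was 7.24%, and among the 1605 within 1.5-fold of Cdkn2b it was 4.24%. Zeros on adjacent genes were counted too, but no expected share was computed, so the count does not show whether such pairs are rare. Of 1548 pairs of adjacent listed autosomal genes that both had at least 5 FPKM in PWK-Xi, 11 pairs (0.711%) were both at 0 in B6-Xi. Of those pairs 7 lie in the protocadherin gamma cluster, whose genes share exons. Cdkn2a and Cdkn2b were 1 of the other 4, a count made after their values were seen. In the GENCODE M21 annotation the protein-coding transcripts of Cdkn2a and Cdkn2b shared no identical run longer than 23 bases. The 2 protein-coding Cdkn2a transcripts, of 852 and 895 bases, shared a run of 578 bases, so the single value cannot be divided between p16Ink4a and p19Arf.

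**Figure D1:**
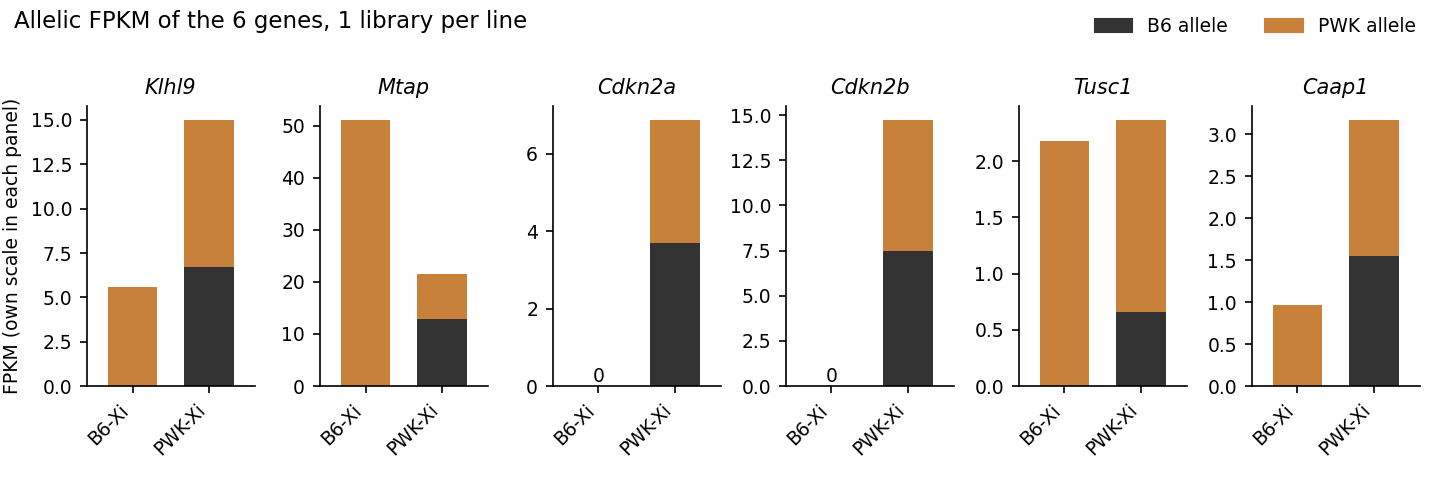
FPKM of the B6 allele (dark) and the PWK allele (orange), stacked, in the 1 library of each line, with the genes in chromosome order and a separate vertical scale for each gene. Cdkn2a and Cdkn2b are at 0 in B6-Xi, the other 4 genes have PWK expression only in B6-Xi, and all 6 have both alleles in PWK-Xi.

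Mtap was the most abundant of the 6 in both lines and the only 1 of them with a higher total in B6-Xi. It had 51.1 FPKM in B6-Xi, 0 from B6 and all from PWK. In PWK-Xi it had 12.8 FPKM from B6 and 8.75 FPKM from PWK, in all 21.6 FPKM with a B6 share of 59.4%. The total was thus 2.37-fold higher in B6-Xi (a log2 difference, PWK-Xi over B6-Xi with a pseudocount of 1 FPKM, of -1.21), and the PWK allele alone was 5.84-fold higher there. Mtap supplied 85.4% of the summed FPKM of the 6 genes in B6-Xi and 33.8% in PWK-Xi, although the sums themselves were close, at 59.9 and 63.8 FPKM.

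Klhl9, which encodes a substrate adaptor of CUL3 ubiquitin ligases that acts on Aurora B in mitosis, moved the other way. In B6-Xi it had 5.60 FPKM, entirely from PWK, against 6.72 FPKM from B6 and 8.30 FPKM from PWK in PWK-Xi. The total of 15.0 FPKM in PWK-Xi was 2.68-fold higher, and the PWK allele alone was 1.48-fold higher. Mtap exceeded Klhl9 9.13-fold in B6-Xi and 1.44-fold in PWK-Xi. The annotated exons of Klhl9 overlap those of Gm26566 on the opposite strand, and those of Caap1 overlap Gm10306. Whether strand was kept is not stated, so reads of these pairs cannot be told apart.

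Tusc1 and Caap1 were the lowest of the 6 in PWK-Xi and lay under the 5 FPKM used for counting differences. Tusc1, a candidate tumour suppressor gene with a single exon, had 2.18 FPKM in B6-Xi, entirely from PWK. In PWK-Xi it had 0.658 FPKM from B6 and 1.71 FPKM from PWK, so its total stayed near the same, at 2.37 FPKM. Its B6 share of 27.8% was the lowest of the 6, and 3 of the 135 genes from B4galt1 to Jun with at least 1 FPKM in PWK-Xi had a lower share. Caap1, named for its part in restraining caspase activity, had 0.961 FPKM in B6-Xi, entirely from PWK. In PWK-Xi it had 1.55 FPKM from B6 and 1.62 FPKM from PWK, a total 3.30-fold higher with a B6 share of 49.0%. At such levels small changes in reads move the shares, and the depth to judge this is unknown.

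By level the order in PWK-Xi was Mtap, Klhl9, Cdkn2b, Cdkn2a, Caap1 and Tusc1, and in B6-Xi it was Mtap, Klhl9, Tusc1 and Caap1, followed by the pair at 0. Klhl9 and Cdkn2b lay close in PWK-Xi, at 15.0 and 14.7 FPKM. With 1 library per line, whether neighbours in these orders differ could not be tested.

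Of the 4 that reached 5 FPKM in a line, Cdkn2a and Cdkn2b counted as at least 4-fold higher in PWK-Xi on the scale with a pseudocount, beside 7.05% of all 5490 such genes, and none as 4-fold lower, beside 1.33%. Both owe this to their 0 in B6-Xi. With genes above 0 in both lines, none of the 6 was past 4-fold, beside 2.79% higher and 1.24% lower of 5241 genes. At 2-fold Klhl9 joined the higher genes (17.8% of all) and Mtap was lower (5.83% of all). The rule that chose the genes used this contrast, so nothing is read from these counts.

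In B6-Xi, B6 expression was listed at 0 for every gene from Mllt3 to Jun that had at least 1 FPKM there. Of the 6 genes 3 had at least 1 FPKM in B6-Xi (Mtap, Klhl9 and Tusc1), and each had a B6 share of 0%. A share of at most 10% was found in 9.09% of 7826 autosomal genes of that line. From Mllt3 to Jun, which contains the locus, 57 genes are listed in annotation order, and the 11 with at least 1 FPKM in B6-Xi had no B6 expression at all. Over the longer stretch from B4galt1 to Jun, which earlier results had marked out by its lack of B6 expression in this line, 97 of 97 such genes (100%) lay at 10% or less and 96 at exactly 0. In the rest of chromosome 4 16 of 376 (4.26%) did. Because the stretch was marked out by this lack, the contrast only describes it. In PWK-Xi all 6 genes had both alleles, none had a B6 share of at most 10%, and 1.62% of autosomal genes did. Their shares of 27.8% to 59.4% compare with a median of 53.6% from B4galt1 to Jun, where the 10th percentile was 41.2% and the 90th 66.7%.

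Other genes from Mllt3 to Jun showed the same split between the lines. Ptplad2 (now Hacd4), a gene of very-long-chain fatty acid synthesis, had 11.2 FPKM in B6-Xi, entirely from PWK, against 14.4 FPKM with 41.6% from B6 in PWK-Xi. Focad, which encodes a focal adhesion protein, had 2.13 FPKM, again all from PWK, and 2.19 FPKM with 49.3% from B6. Beyond Caap1, Plaa had 3.63 and 7.65 FPKM, the intraflagellar transport gene Ift74 had 3.46 and 11.9 FPKM, and the histone H2A deubiquitinase gene Mysm1 had 1.41 and 5.41 FPKM. All of these came from PWK alone in B6-Xi, and their B6 shares in PWK-Xi were 58.0%, 55.8% and 68.9%. Jun, an AP-1 subunit gene at the end of the stretch, had 5.22 FPKM from PWK in B6-Xi, and 6.35 FPKM with 48.6% from B6 in PWK-Xi. Mllt3 and Gm12657 had 1.08 and 3.33 FPKM in B6-Xi and 1.55 and 3.92 FPKM in PWK-Xi, where 62.5% of each came from B6. The long non-coding gene Gm12603, directly before Mtap, was an exception in PWK-Xi, with a B6 share of 7.14% of 1.12 FPKM. In B6-Xi it had 0.504 FPKM, all from PWK.

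Large parts of the neighbourhood were listed at 0 in both lines. All 15 listed genes with an interferon symbol (Ifn), in the cluster around Klhl9, were at 0 in both. Between Klhl9 and Mtap 22 of 24 listed genes were at 0 in both lines. Between Cdkn2b and Tusc1 lie 6 listed genes, Dmrta1, Zfp352, Gm12633, Elavl2, Gm12669 and Izumo3. All of them were at 0 in B6-Xi, and 5 were in PWK-Xi, where Dmrta1 had 0.0486 FPKM. No listed gene between Cdkn2b and Tusc1 therefore bears on how far the zeros of B6-Xi reach beyond Cdkn2b. On the other side the nearest listed gene, Mtap, was expressed.

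**Figure D2:**
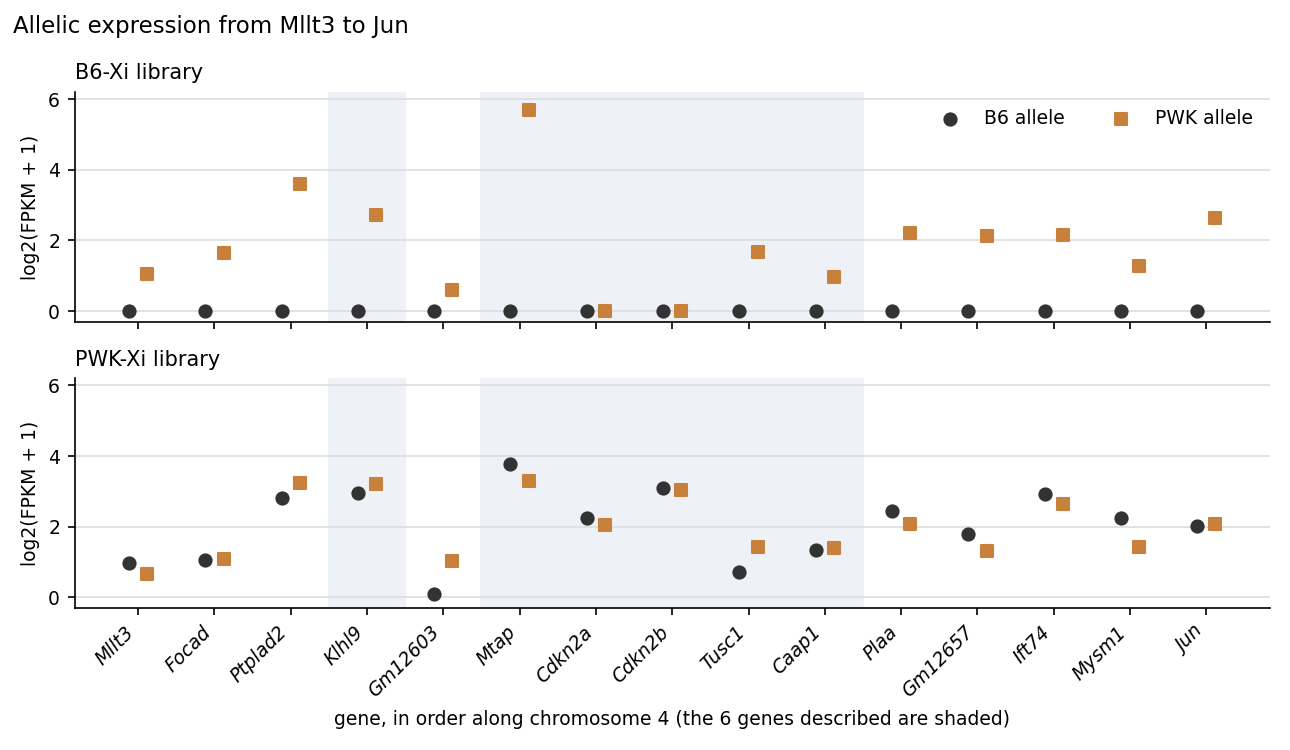
Allelic expression, as log2(FPKM + 1), of the 15 listed genes from Mllt3 to Jun with at least 1 FPKM in either line, in chromosome order. In B6-Xi the B6 allele (dark circles) is at 0 for all 15 and the PWK allele (orange squares) is at 0 for Cdkn2a and Cdkn2b only, while in PWK-Xi both alleles of all 15 are above 0.

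From B4galt1 to Jun 4 of the 74 genes that reached 5 FPKM in PWK-Xi had a 0 in B6-Xi (5.41%), against 6 of 229 (2.62%) in the rest of the chromosome and 4.76% of all genes. Besides Cdkn2a and Cdkn2b these were Rad23b, a nucleotide excision repair gene with 12.8 FPKM and a B6 share of 48.8% in PWK-Xi, and AI314180 with 5.60 FPKM and 71.8%.

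The PWK allele can be compared between the lines apart from the B6 allele, which had little or no listed expression in B6-Xi from B4galt1 to Jun. Among 87 genes from B4galt1 to Jun with at least 1 FPKM of that allele in both lines, the median ratio of B6-Xi over PWK-Xi was 1.10, with a 10th percentile of 0.572 and a 90th of 1.94. In the rest of chromosome 4 the median was 1.04 over 279 genes, and over all autosomes it was 0.975. The ratio of totals, by contrast, had a median of 0.526 over 95 genes from B4galt1 to Jun and of 0.948 over 364 genes in the rest. Klhl9, with a PWK-allele ratio of 0.675, and Tusc1, with 1.27, lay within the 10th to 90th percentiles. Mtap, at 5.84, ranked 2 of 87, behind the tropomyosin gene Tpm2 at 8.84 and ahead of Hrct1 at 3.88. By totals Mtap ranked 4 of 95, after Lurap1l, Tpm2 and Hrct1. The 9 neighbours from Mllt3 to Jun that are not among the 6 had PWK-allele ratios between 0.484 and 2.26. Mtap thus departed from its neighbours in the level of its PWK allele, and Cdkn2a and Cdkn2b departed by having none listed. Whether these departures exceed the spread between libraries of a line could not be tested.

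**Figure D3:**
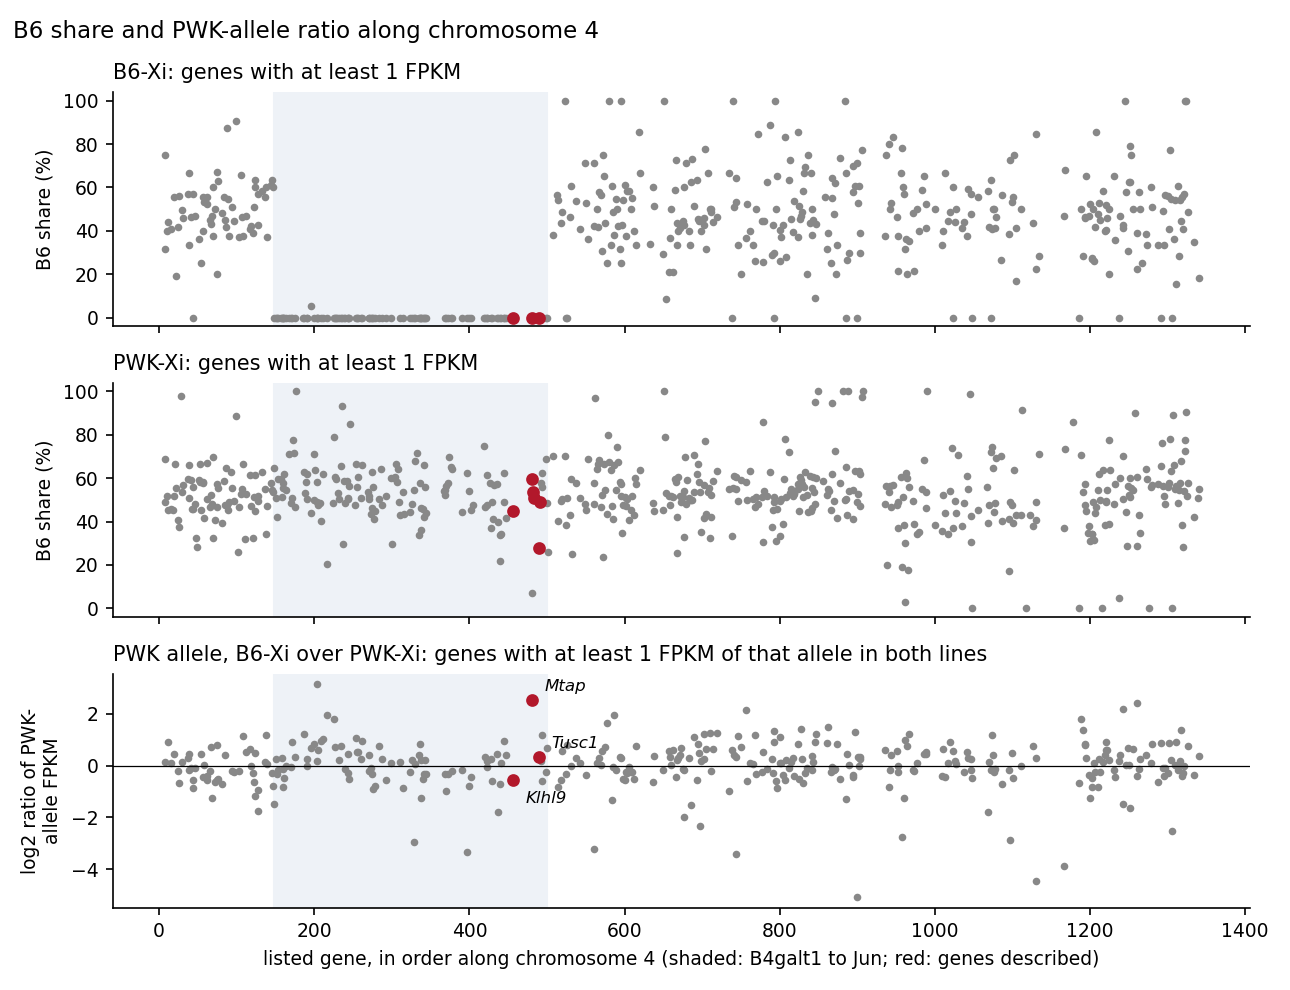
B6 share in each line (upper and middle panels, in percent) and log2 ratio of PWK-allele FPKM, B6-Xi over PWK-Xi (lower panel), for listed genes of chromosome 4 in annotation order, with the stretch from B4galt1 to Jun shaded and the genes described in red. The shaded genes lie at or near 0% in B6-Xi and around the median of 53.6% in PWK-Xi, and Mtap stands above most of them in the lower panel.

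The genes whose 4 allelic values lay nearest to each of the 6, by Euclidean distance on log2(FPKM + 1) over all listed genes, came from several chromosomes. For Cdkn2a they were Nfatc3 (chromosome 8, distance 0.0169), Mga (chromosome 2, 0.0953) and Smarcd3 (chromosome 5, 0.130), all at 0 in B6-Xi with both alleles in PWK-Xi. For Cdkn2b they were Psme4 (chromosome 11, 0.224), Rad23b (chromosome 4, 0.259) and Faim (chromosome 9, 0.263). For Mtap the nearest was Tpm2, also on chromosome 4, at 0.578, followed by Psmd1 on chromosome 1 at 0.836. Sgpp1 on chromosome 12 was nearest to Klhl9 at 0.202, followed by Erp44 on chromosome 4 at 0.205. Tmem38a, on chromosome 8, was nearest to Tusc1 at 0.0628. Dpy19l4, on chromosome 4 but outside the stretch from B4galt1 to Jun, was nearest to Caap1 at 0.149. With 2 libraries this likeness describes the values and nothing more.

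The retinoblastoma arm was read from a list of 22 genes, Cdkn2a and Cdkn2b included, of which 11 reached 5 FPKM in a line. On it 4 genes were at least 4-fold higher in PWK-Xi and 2 were 4-fold or more lower, beside 7.05% and 1.33% of all genes. The 4 higher ones were all listed at 0 in B6-Xi, so among genes above 0 in both lines none was left, beside 2.79%. The list's median log2 difference was 0.30, beside 0.23 over all 5490 genes. Without Cdkn2a and Cdkn2b, whose contrast was used to choose them, 9 genes were left with 2 higher, 2 lower and a median of 0.02. All 4 INK4 genes were at 0 in B6-Xi. Cdkn2c, which encodes p18Ink4c and lies on chromosome 4 outside the stretch without B6 expression, had 11.7 FPKM in PWK-Xi, 60.0% from B6. Cdkn2d, which encodes p19Ink4d, was at 0 in PWK-Xi too and so cannot show a difference. Of the 3 that differed, Cdkn2a and Cdkn2b were chosen with this contrast known, which leaves Cdkn2c alone. For comparison, 4.76% of all genes at 5 FPKM or more in PWK-Xi had a 0 in B6-Xi. Nothing is therefore read from this count for the INK4 family as a set. The D cyclins, whose kinases the INK4 proteins inhibit, were higher in B6-Xi in 2 cases. Ccnd1 had 197.7 FPKM in B6-Xi against 12.4 FPKM in PWK-Xi, a 15.9-fold difference, and Ccnd2 had 20.1 and 1.72 FPKM, 11.7-fold. Ccnd3 was within 2-fold, at 28.2 and 35.0 FPKM. The kinase gene Cdk4 was also within 2-fold, at 200.9 and 250.3 FPKM, and Cdk6 had 3.25 and 1.11 FPKM. The pocket protein genes Rb1, Rbl1 and Rbl2 stayed under 5 FPKM in both lines, with sums of 8.96 and 8.90 FPKM. Among the E2F and DP factors E2f1 had 5.17 and 4.55 FPKM, E2f4 had 10.7 and 10.9 FPKM, and Tfdp1 had 22.6 and 14.4 FPKM. E2f6, a repressor of the family, had 5.05 FPKM in PWK-Xi against a listed 0 in B6-Xi.

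The p53 arm downstream of Arf had no gene past 4-fold among those counted. Of 27 listed genes 20 had at least 5 FPKM in either line, and at 4-fold none was higher or lower, beside 7.05% and 1.33% of all genes. At 2-fold 1 was higher in PWK-Xi and 2 were lower, beside 17.8% and 5.83%. Trp53 itself, which encodes p53, had 50.0 FPKM in B6-Xi against 34.8 FPKM in PWK-Xi. Mdm2, the ubiquitin ligase gene that p19Arf acts on and that p53 induces, was nearly level at 36.8 and 36.2 FPKM. Mdm4, the gene of a p53 inhibitor, was 2.27-fold higher in PWK-Xi, at 5.03 and 11.4 FPKM. Among p53 target genes Cdkn1a, which encodes p21, had 187.3 and 133.9 FPKM, and the apoptosis effector Bax had 96.5 and 57.0 FPKM. The 14 measured target genes had a median log2 difference of -0.48, beside 0.23 over all genes. Aen and Plk2 were at least 2-fold higher in B6-Xi, at 17.9 and 7.33 FPKM and at 35.0 and 16.5 FPKM, and none of these 14 was 2-fold higher in PWK-Xi. Under 5 FPKM in both lines, Sesn1 had 0.579 and 2.48 FPKM, and Bbc3 had a listed 0 and 2.83 FPKM.

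Regulators known to act on the locus were mostly within 2-fold. Of 31 listed genes 14 had at least 5 FPKM in either line, and 12 of these were within 2-fold. The polycomb group represses the locus in young fibroblasts. Its catalytic gene Ezh2 had 12.8 FPKM in B6-Xi against 17.6 FPKM in PWK-Xi, Suz12 had 7.53 and 10.3 FPKM, Bmi1 had 4.94 and 5.39 FPKM and Rnf2 had 8.18 and 10.3 FPKM. Phc2 was the only 1 of these 14 past 4-fold (7.05% of all genes were that much higher in PWK-Xi), with 0.945 FPKM in B6-Xi against 10.1 FPKM in PWK-Xi. Dmtf1, an activator of the Arf promoter, was 2.65-fold higher in PWK-Xi at 3.61 and 9.58 FPKM. Cbx7 was at 0 in B6-Xi and at 0.526 FPKM in PWK-Xi.

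Around Mtap, the list of methionine salvage, polyamine and PRMT5 genes stayed near level. Of 17 members with at least 5 FPKM, 14 were within 2-fold, and the median log2 difference was 0.09. Mtap was the only 1 of the 17 that was 2-fold or more higher in B6-Xi. The next enzyme of the salvage pathway, Mri1, had 7.77 FPKM in PWK-Xi, 100% from B6, against a listed 0 in B6-Xi. Apip had 18.0 and 19.8 FPKM and Enoph1 had 7.66 and 7.64 FPKM. The spermidine synthase gene Srm, whose reaction yields the substrate of Mtap, had 58.3 and 59.8 FPKM, and Odc1, the ornithine decarboxylase gene, had 25.6 and 45.6 FPKM. Sat1, an X-linked spermidine acetyltransferase gene, was 2.73-fold higher in PWK-Xi, at 41.1 and 112.0 FPKM. Prmt5, an arginine methyltransferase gene whose product is inhibited by the substrate of Mtap, had 12.7 and 11.4 FPKM.

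For Klhl9, the partner list of CUL3 and Aurora B genes held 7 measured members, with none past 4-fold. Cul3 was 2.36-fold higher in PWK-Xi, at 14.9 and 35.2 FPKM, and Klhl9 was the only other member past 2-fold. Aurkb had 13.0 and 10.8 FPKM and Birc5 had 105.7 and 101.2 FPKM. For Caap1, the caspase list held 8 measured members. The 4 caspases and activators among them were all within 2-fold, with Casp8 at 15.4 and 12.2 FPKM. The other 4 were inhibitor and BCL2 family genes, of which 2 were within 2-fold. The remaining 2, the apoptosis inhibitor genes Bcl2l1 and Xiap, were at least 4-fold higher in PWK-Xi, beside 7.05% of all genes. Bcl2l1 had 1.79 and 18.4 FPKM, and Xiap had 1.62 and 13.9 FPKM. Xiap is X-linked, so its values compare different alleles: all came from PWK in B6-Xi and all from B6 in PWK-Xi.

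**Figure D4:**
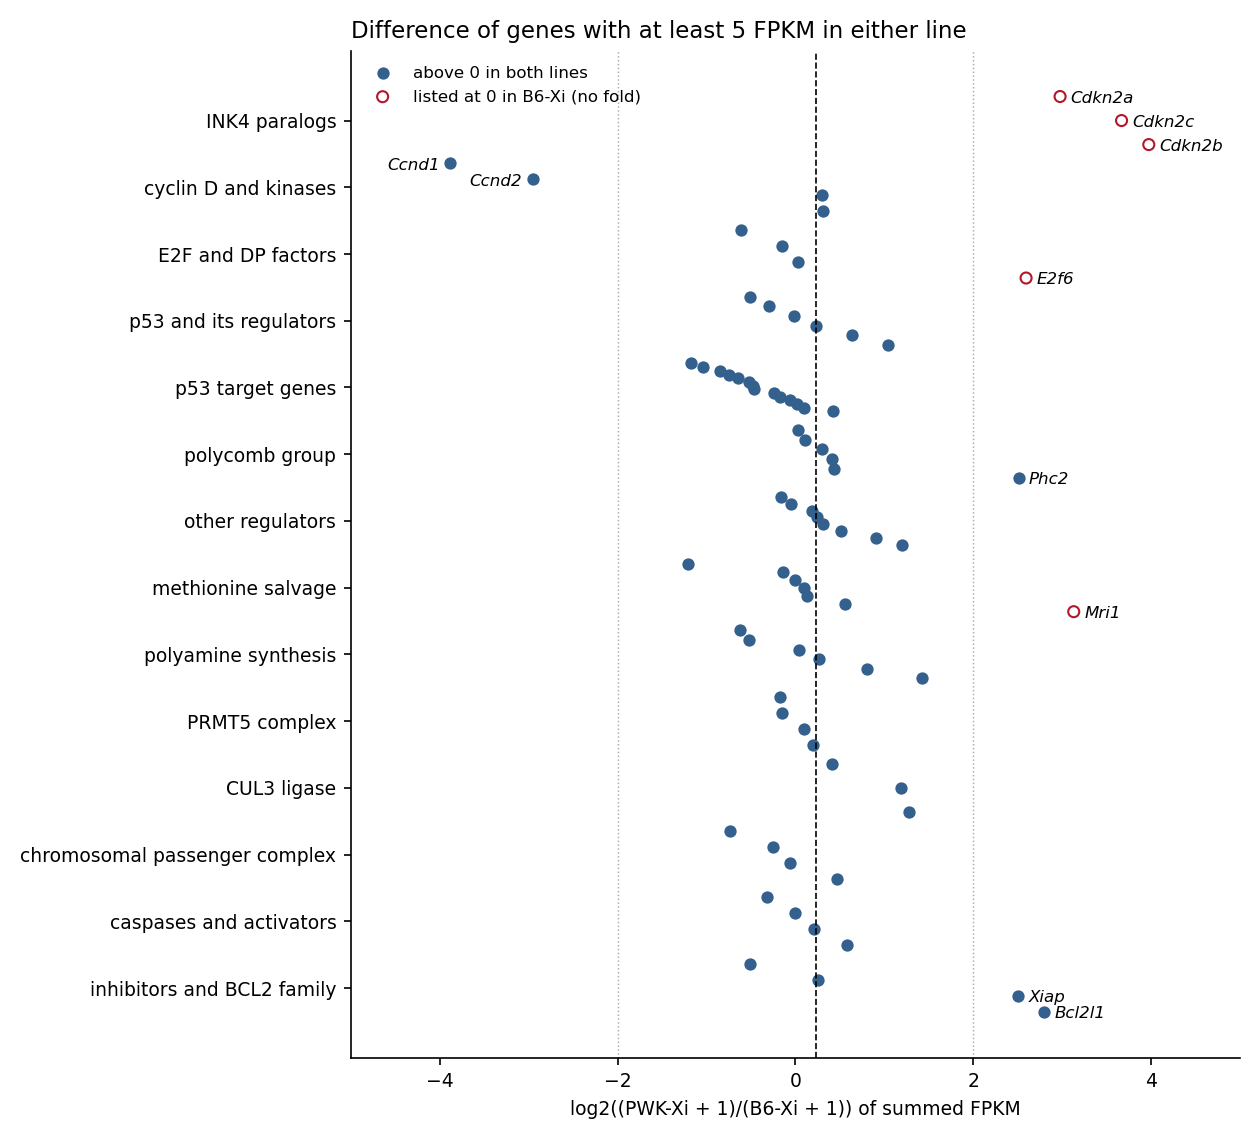
Log2 difference (PWK-Xi over B6-Xi, pseudocount of 1 FPKM) of the pathway list genes that reached 5 FPKM in a line. The dashed line is the median of all such genes (0.23), dotted lines mark 4-fold, and open red circles are genes listed at 0 in B6-Xi, whose position depends on the pseudocount. The INK4 genes stand at the right as open circles, Ccnd1 and Ccnd2 at the left, and the p53 target genes plotted all lie within 4-fold.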

How the data were processed

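Smart-seq2 libraries of 2 hybrid fibroblast lines were compared, 1 library per line, grouped by title. The authors deposited FPKM of the B6 and the PWK allele for each gene, per the file headers. Trimming, alignment and assembly tools (HISAT2 2.2.0, StringTie 2.1.1, Trim Galore 0.6.4) and build mm9 are named in the submitters' processing notes. The step that split reads between strains is not given in the sources here. FPKM hold no counts, so depth is unknown and no interval was given. Normalized values were used as deposited. The 6 genes and all lists were chosen with earlier results of these data known.

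Totals are the sum of both alleles. Shares used genes with at least 1 FPKM in the line, and differences are log2((PWK-Xi + 1)/(B6-Xi + 1)) for genes that reached 5 FPKM in a line, which understates the change of low genes. Counts use 4-fold and 2-fold. With 1 library per line there is no test and no p-value. Gene order came from RefSeq (GRCm38.p6) and GENCODE M21 symbols, a later build than mm9. The match was by RefSeq symbol for 21417 genes, 1196 by a RefSeq synonym and 16 by the GENCODE name, and 82 stayed unmatched. Their coordinates were used for order only. All 6 genes matched a promoter window.

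The rule for naming allowed the 6 genes, the genes from Mllt3 to Jun with at least 1 FPKM in either line, the members of list groups of up to 10 genes (of larger groups the 3 with the largest difference per direction and the 2 most abundant), and the 3 nearest genes of each of the 6. Other genes, among them the 6 at or near 0 between Cdkn2b and Tusc1, Rad23b and AI314180, the genes with the highest ratios from B4galt1 to Jun, single regulators such as Bmi1, Rnf2, Suz12 and Cbx7, the markers and the control genes at 0, were chosen after their values were seen. Scripts ran in Python 3.11.15 with pandas 2.3.3, numpy 2.4.6 and matplotlib 3.10.9, and the calls were tested on simulated data. From the caspase list 1 gene is not reported here.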

Additional observations from a re-analysis of the deposited data

How the results depend on the processing

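With 1 library per line and no counts, these alternatives show the effect of settings only. Of 102 alternative values 84 stayed within 1.5 times of the main value, where log2 differences were compared as folds. All differences of Mtap and Klhl9 kept their direction, Mtap from -1.40 to -1.08 and Klhl9 from 0.92 to 1.53 on the log2 scale. Tusc1 was near 0 throughout, at -0.11 relative to the median gene and 0.25 with each line scaled to the same summed FPKM. With a pseudocount of 5 the Caap1 difference was 0.45 (1.09 in the report). No fold was computed for Cdkn2a and Cdkn2b, which are at 0 in B6-Xi. Their count past 4-fold, 2, was 0 with a pseudocount of 5 and 0 among genes above 0 in both lines, both tried after seeing the data. At 2-fold 1 of the 6 genes was lower in PWK-Xi. Over all genes, 387 higher in PWK-Xi became 228 with a minimum of 10 FPKM, 112 with a pseudocount of 5 and 146 among genes above 0 in both lines, and 73 lower became 23 with a pseudocount of 5. From Mllt3 to Jun, the 11 genes at or under a B6 share of 10% in B6-Xi became 4 with a minimum of 5 FPKM, since fewer genes were left, and the 1 in PWK-Xi became 3 with no minimum and 0 with a minimum of 5 FPKM. Every pathway list kept its 4-fold counts with a minimum of 1 FPKM, a pseudocount of 0.1 and relative to the median gene. With a pseudocount of 5, tried after seeing the data, the higher counts became 0 for the retinoblastoma arm (4 in the report), locus regulators (1), methionine salvage and polyamines (1) and caspases (2), and the lower count of the retinoblastoma arm (2) became 1. Among genes above 0 in both lines, also tried later, the higher counts of the retinoblastoma arm and of methionine salvage and polyamines were 0, since their higher genes are at 0 in B6-Xi. No paired analysis was possible because each line has 1 library, and the shared replicate number 1 gives fewer than 2 pairs.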
